A study of Arabidopsis thaliana with 6 samples.

Results

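The chloroplast chromosome of Arabidopsis thaliana carries genes for proteins of the large subunit of the chloroplast ribosome, and 7 of them were followed here in wild type and in the mutant pam48. They were taken as the genes whose symbol starts with rpl, that lie on the plastid chromosome of the gene table and that have a probe set (the group of array probes that measures a transcript) annotated with that gene alone. The members are rpl14, rpl16, rpl20, rpl22, rpl32, rpl33 and rpl36, each with 1 probe set, among 69 plastid-encoded genes measured in this way and 22746 probe sets in all. The remaining rpl symbols of that chromosome, rpl2 and rpl23, are each present in 2 copies and share their probe sets between the copies, so they were left out by the same criterion.

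RNA came from leaves harvested at the stage of 8 leaves, from soil-grown greenhouse plants under 16 h of light and 8 h of dark. Col-0 wild type and pam48, a mutant in the Col-0 background also labelled mterf6-1, were each measured on 3 Affymetrix arrays labelled as biological replicates. The labels do not say whether a replicate is 1 plant or a pool, and pam48 is a single allele. Every value is an RMA summary on the log2 scale, and each difference is the mean of pam48 minus that of wild type, with n = 3 per genotype.

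Chloroplast ribosomes are of the bacterial type. They make the plastid-encoded subunits of the photosystems, the ATP synthase and Rubisco, and they are assembled from plastid-encoded rRNAs and from ribosomal proteins of which some are encoded in the plastid and the others in the nucleus. Plastid genes are mostly transcribed together, and the long primary transcripts are then cut, spliced and edited. The mTERF family, to which the mutant's second name refers, consists of proteins of mitochondria and plastids that act in organelle transcription and RNA metabolism, and MTERF6 has been connected with the maturation of a plastid isoleucine tRNA and with transcription termination at the polycistron that ends in rpoA. MTERF6 has no probe set listed under its locus here, so its own level was not analysed by name.

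The large-subunit transcripts differed between the genotypes to very unequal extents. By limma, rpl14 rose 2.27-fold and rpl16 rose 2.02-fold, while the other 5 of the 7 genes were not called at an adjusted p under 0.05. The widest difference was that of rpl20, whose mean was 4.25-fold higher in pam48 with an adjusted p of 0.0628 by limma. At the other end, rpl33 differed by 1.08-fold. In all, 2 of 7 members were called higher and 0 lower, against 0.598% of all probe sets called higher and 9.68% (6 of 62) of the other plastid-encoded genes. Lower calls made up 0.180% of all probe sets. The calls depended on which arrays entered the fit, while the differences moved little, from 1.02 to 1.32 for rpl14 and from 0.92 to 1.15 for rpl16 with 1 array left out. Without pam48 replicate 1 there were 3 called members, in a fit that called 1.05% of all probe sets higher, and without each of the other 5 arrays there were 0. Without any 1 wild-type array, 1 of the 22746 probe sets was called at all.

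**Figure D1:**
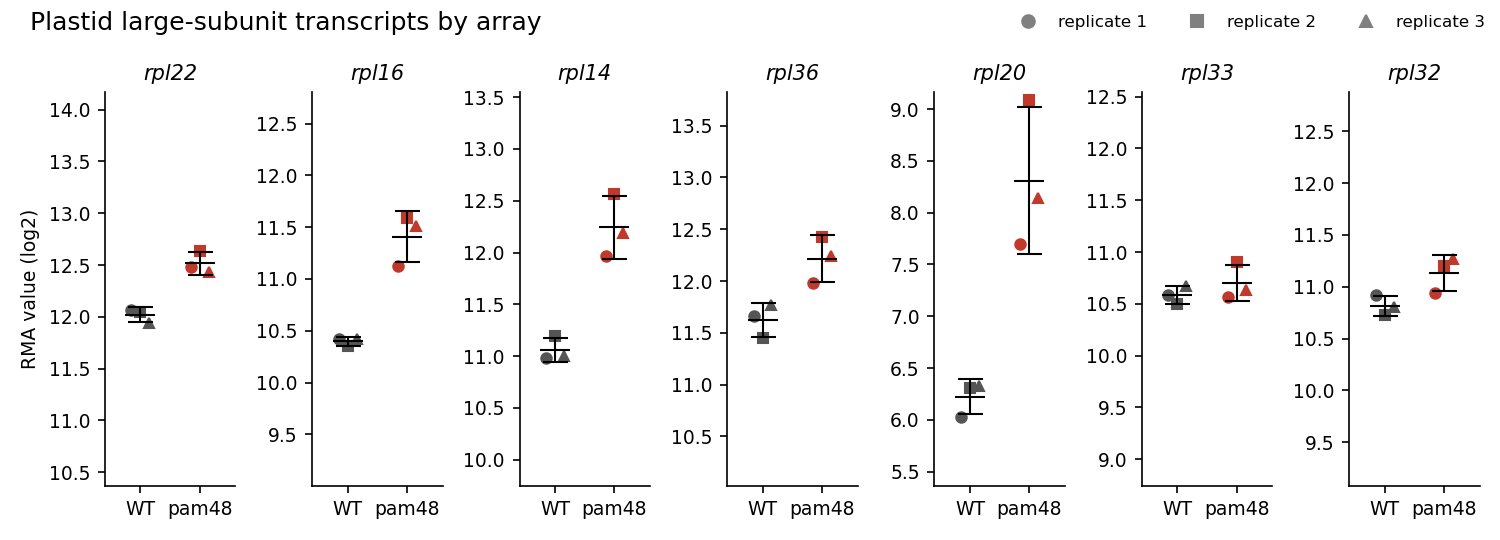
RMA values (log2) of the 7 plastid-encoded large-subunit genes on each array, with 1 panel per gene, grey for wild type (WT), red for pam48, symbols for the replicate numbers and bars for the mean ± SD (n = 3). All panels span the same number of log2 units. The genotypes stand apart in 6 genes, with the widest gap in rpl20 (1.37) and the narrowest in rpl32 (0.02), and overlap in rpl33.

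On the map of the plastid chromosome the members fall into 3 stretches. The genes rpl22, rpl16, rpl14 and rpl36 lie in a gene cluster related to a bacterial ribosomal protein operon, which in the plastid runs on to rpoA, the gene of the alpha subunit of the plastid RNA polymerase. The genes rpl33 and rpl20 lie on either side of rps18, and rpl32 lies between ndhF and ccsA.

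The called members are next to each other in the ribosomal protein cluster. The gene rpl14 encodes a conserved protein that in bacterial ribosomes contributes to the contact between the subunits. Its values were 10.98, 11.19 and 11.00 on wild type replicates 1, 2 and 3, and 11.97, 12.57 and 12.19 on pam48 replicates 1, 2 and 3. The lowest pam48 value lay 0.78 above the highest wild-type value. The rise was 1.18 ± 0.17 (SE, limma adjusted p = 0.0450, 95% interval 0.78 to 1.59), from a mean of 11.06 ± 0.12 to 12.24 ± 0.30 (SD, n = 3). With the replicate number as a block the limma adjusted p was 0.0290, and it lay between 0.0868 and 0.212 in the 5 fits that left out an array other than pam48 replicate 1, with differences of 1.02 to 1.25.

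The gene rpl16, interrupted by an intron in Arabidopsis, encodes a protein that in bacteria lies near the peptidyl transferase centre and the tRNA bound for the next amino acid. Wild type gave 10.42, 10.35 and 10.42, the tightest triplet of the members, and pam48 gave 11.13, 11.59 and 11.51. No pam48 array came within 0.71 of a wild-type array. The rise was 1.01 ± 0.14 (SE, limma adjusted p = 0.0439, 95% interval 0.67 to 1.36). The adjusted p was 0.0425 with the block and 0.0897 to 0.207 without any 1 array other than pam48 replicate 1, with differences of 0.92 to 1.02. Whether this probe set reads exon or intron sequence was not examined.

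The other members of the cluster differed less. The gene rpl22 encodes a protein that lines the exit tunnel of the nascent chain in bacterial ribosomes and is essential in tobacco plastids. It gave 12.07, 12.05 and 11.94 in wild type and 12.48, 12.64 and 12.43 in pam48. The genotypes did not overlap, and the difference was 0.50 ± 0.11 (SE, limma adjusted p = 0.119, 95% interval 0.24 to 0.75). The gene rpl36 encodes a very small zinc-binding protein of the subunit. It gave 11.66, 11.45 and 11.77 in wild type against 11.98, 12.43 and 12.24 in pam48, again without overlap. Its difference was 0.59 ± 0.15 (SE, limma adjusted p = 0.175, 95% interval 0.22 to 0.96), so neither rpl22 nor rpl36 was called.

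Outside the cluster the members held both extremes. The gene rpl20 encodes a protein that in bacteria binds rRNA early in subunit assembly, and it is essential in tobacco plastids. Its wild-type values were 6.03, 6.31 and 6.33, and its pam48 values were 7.70, 9.09 and 8.14. Its wild-type mean of 6.22 lay below every array median (6.38 to 6.55). The other 6 members had wild-type means of 10.40 to 12.02. All pam48 values lay at least 1.37 above wild type, but they differed among themselves by more than those of any other member (SD 0.71, against 0.11 to 0.30 in the other 6). The difference was 2.09 ± 0.34 (SE, 95% interval 1.27 to 2.91), matched or exceeded upward by 16 of the 22746 probe sets, this one included, and it ranked 2 among the 69 plastid genes, after rpoC1. With the replicate number as a block rpl20 was called (limma adjusted p = 0.0306), in a fit that called 1.05% of all probe sets higher. It was also called with median centring of the arrays (adjusted p = 0.0421), with array weights (0.0187) and without pam48 replicate 1 (0.0267), and not without any other 1 array (0.0845 to 0.256).

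The gene rpl33 encodes a small protein that tobacco plastids can do without except in the cold. It gave 10.59, 10.50 and 10.67 in wild type and 10.57, 10.90 and 10.63 in pam48, so the genotypes overlapped. The difference of 0.11 ± 0.13 (SE, limma adjusted p = 0.736) had a 95% interval from −0.19 to 0.42. The gene rpl32, essential in tobacco plastids, gave 10.92, 10.73 and 10.80 in wild type and 10.94, 11.20 and 11.27 in pam48. Its genotypes were apart by 0.02, and the difference of 0.32 ± 0.13 was not called (SE, limma adjusted p = 0.342, 95% interval 0.02 to 0.62).

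In this count 6 of 7 members had no overlap between the genotypes with pam48 higher, against 9.14% of all probe sets and 48.4% of the other 62 plastid genes. On the deposited scale all 7 differences were positive, against 85.5% of those of the other plastid genes and 44.7% of all, while those of rpl22, rpl36, rpl32 and rpl33 were negative under at least 1 scaling to the plastid transcripts. The median difference was 0.59 over the members, 0.35 over the other plastid genes and −0.0280 over all probe sets. At an unadjusted p under 0.05 and higher in pam48 were 6 of 7 members, 41.9% of the other plastid genes and 6.79% of all probe sets.

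The order of the differences was rpl20, rpl14, rpl16, rpl36, rpl22, rpl32 and rpl33. Whether neighbours in this order were separated was read from their log2 ratio within each array, which any shift common to an array leaves unchanged. The ratio of rpl20 over rpl14 was higher in pam48 by 0.90, with 0.56, 1.36 and 0.79 on the pam48 arrays relative to the wild-type mean and at most 0.16 in wild type. The ratio of rpl16 over rpl36 was higher by 0.42, also without overlap. A lack of overlap was common, as 16 of the 21 pairs of members had none. For the remaining neighbours in the order, rpl14 over rpl16 (0.17), rpl36 over rpl22 (0.09), rpl22 over rpl32 (0.18) and rpl32 over rpl33 (0.20), the genotypes overlapped. As these ratios were chosen by the order, they are descriptions without a test. Whether the probe set of rpl20 responds like those of the members with higher levels was not tested.

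Inside the ribosomal protein cluster the ratio of rpl14 over rpl22 was higher in pam48 by 0.69. The SD of this ratio was 0.22 over the pam48 arrays and 0.12 over the wild-type arrays (n = 3 each). The ratio stood at 0.45, 0.89 and 0.72 on the pam48 arrays relative to the wild-type mean, and at −0.13, 0.10 and 0.02 in wild type. This pair was chosen after its differences were seen, from 21 pairs of members, and whether the probe sets respond alike at their levels was not tested. Across rps18, the ratio of rpl20 over rpl33 was higher by 1.97, with 1.49, 2.56 and 1.87 on the pam48 arrays. Its SD was 0.54 over the pam48 arrays and 0.18 over the wild-type arrays (n = 3 each). For this pair, too, it was not tested whether the probe sets respond alike at their levels, which lie far apart.

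The listed genes between and beside the members were not called on the deposited values, although clpP was under 3 other settings. Of the 10 listed genes 7 were matched to a probe set annotated with that gene alone. In 3 of these the unadjusted p was under 0.05. The list left out psaJ, of photosystem I, the measured gene next to rpl33 in map order. Its difference was −0.05 ± 0.46 (SE) and was not called. In the cluster, rps3, which encodes a small-subunit protein and lies between rpl22 and rpl16, was at 0.37 ± 0.12 (limma adjusted p = 0.256). On the far side of rpl22, rps19, of another small-subunit protein, was at 0.37 ± 0.16 (limma adjusted p = 0.395). The gene at the end of the cluster, rpoA, was at 0.47 ± 0.20 (limma adjusted p = 0.391), with 12.10, 12.16 and 11.49 in wild type and 12.22, 12.55 and 12.39 in pam48. The widest differences of the cluster were thus those of rpl14 and rpl16, with smaller ones measured on both sides.

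Around rpl20 the differences were smaller than that of rpl20 itself. The gene rps18, of the small subunit, was at 0.70 ± 0.19 (limma adjusted p = 0.194). On the other side clpP, which encodes the proteolytic subunit of the plastid Clp protease, was at 0.69 ± 0.11 (limma adjusted p = 0.0541). It was called with quantile normalization (adjusted p = 0.0418), with trend and robust options (0.0433) and with array weights (0.0348). Around rpl32, ndhF, of a subunit of the NDH complex, was at 0.18 ± 0.19 and ccsA, of cytochrome c assembly, at 0.14 ± 0.17, and both overlapped between the genotypes. The probe set of ndhF had means of 3.87 and 4.05, low on the log2 scale of these arrays.

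**Figure D2:**
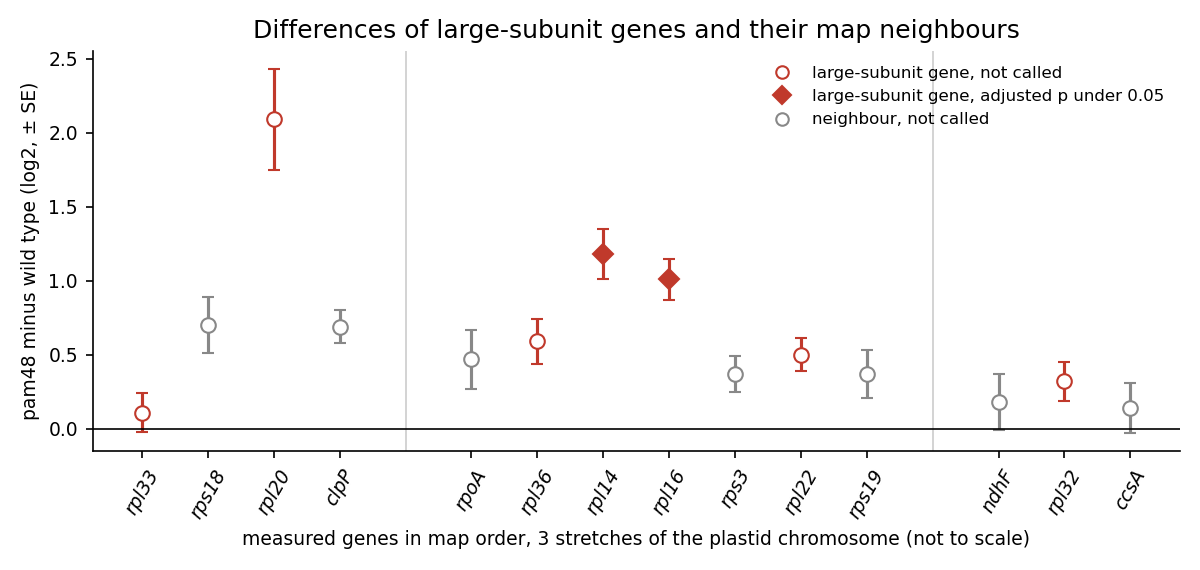
Difference of pam48 minus wild type (log2, ± SE, n = 3 per genotype) for the large-subunit genes (red) and their listed and measured map neighbours (grey), in map order within 3 stretches of the plastid chromosome. The gene psaJ, beside rpl33, was not in the list and is not drawn. Filled diamonds mark rpl14 (1.18) and rpl16 (1.01), the called genes, and rpl20 (2.09) stands highest without being called. Relative to the other plastid transcripts, rpl22, rpl36, rpl32, rpl33, rps3, rps19, rpoA, ndhF and ccsA had negative differences under at least 1 of the scalings tried.

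The small subunit of the same ribosome showed a similar spread. Of its 8 measured plastid genes 2 rose, rps16 by 1.33 ± 0.18 and rps4 by 1.18 ± 0.13 (limma adjusted p = 0.0410 and 0.0252), and the median was 0.71. The 4 genes of the plastid RNA polymerase had a median of 0.80 with 0 called on the deposited values. The widest difference was that of rpoC1, 2.29 ± 0.35 (limma adjusted p = 0.0508, and 0.0417 with the block). It was called in 7 of the 8 other settings that kept all arrays (limma adjusted p from 0.0135 to 0.0568). With 1 array left out it was called in 1 of 6 fits (0.0217 to 0.225). The 4 plastid genes outside the ribosome, polymerase and photosynthesis groups, matK, accD, cemA and clpP, also had a median of 0.80. Of these accD was called higher, and 3 had an unadjusted p under 0.05 by limma. The medians were lower in the genes for photosynthesis, but these too held called genes. Photosystem I with its assembly factors had a median of 0.39 with 2 of 7 called higher, as many as among the large-subunit genes, and the NDH complex had 0.32 with 1 of 10 called higher. The medians were 0.30 for the cytochrome b6f complex with rbcL and ccsA, 0.17 for photosystem II and 0.09 for the ATP synthase, with 0 called in each. No test of the difference between these groups was made.

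Of the partners of the large subunit that are encoded in the nucleus, the measured ones had means close to wild type, with 95% intervals reaching up to 0.58. Of 25 loci written into a list of these partners 7 were matched to a probe set annotated with that gene alone. Of these 0 were called by limma, with 0 at an unadjusted p under 0.05. Over all probe sets 0.598% were called higher and 0.180% lower, so 0 calls among so few genes do not set them apart. Their differences ran from −0.05 to 0.19, with a median of 0.11. The widest were those of AT4G17560 (0.19 ± 0.16, 95% interval −0.20 to 0.58) and AT5G47190 (0.16 ± 0.11, 95% interval −0.11 to 0.43), which both encode plastid L19 proteins. Both were negative when the arrays were scaled to the plastid transcripts.

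**Figure D3:**
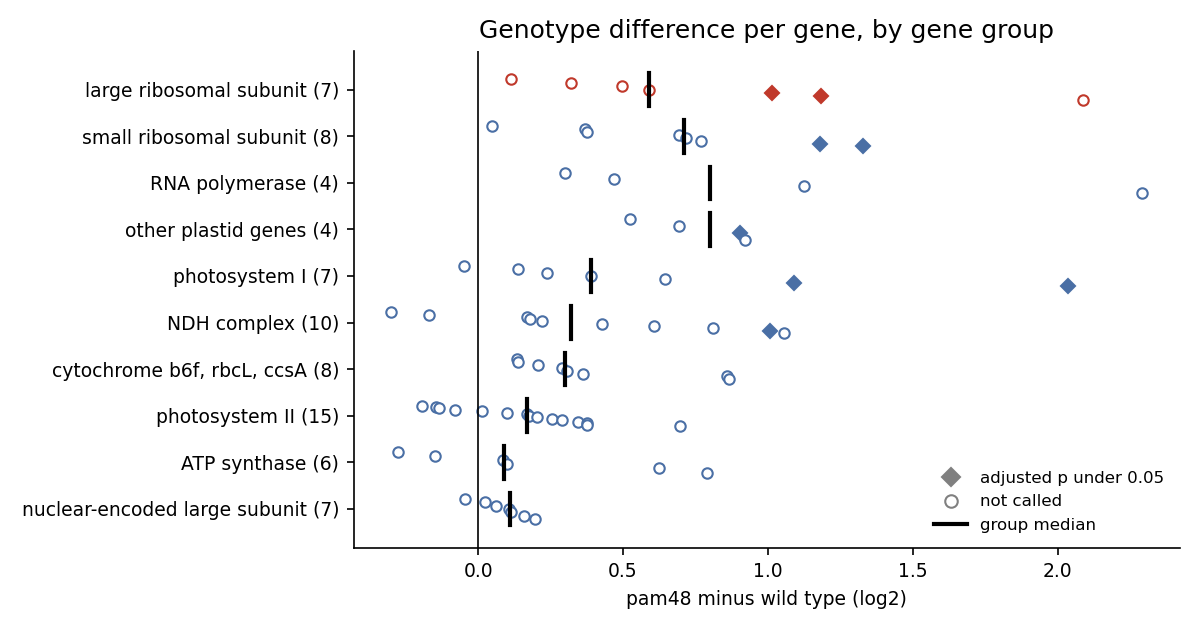
Difference of pam48 minus wild type (log2) for each measured gene of the plastid chromosome, by gene group, and for nuclear-encoded proteins of the plastid large subunit, with the number of genes in brackets, filled diamonds for called genes and black bars for group medians. The large-subunit median is 0.59, next to 0.71 for the small subunit, and the nuclear-encoded partners lie between −0.05 and 0.19. The differences of rpl22, rpl36, rpl32, rpl33 and both named nuclear genes turn negative under at least 1 scaling to the plastid transcripts.

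As most plastid transcripts were higher in pam48, the members were also measured relative to them. Each array was centred on the median deviation of the 62 other plastid genes, a scaling that moved the median difference of all probe sets from −0.03 to −0.41. On this scale rpl20 was 1.70 higher in pam48 (limma adjusted p = 0.0287) and rpl14 was 0.80 higher (limma adjusted p = 0.0497), and both were called, in a fit that called 0.215% of all probe sets higher. The gene rpl16 stood at 0.63 (limma adjusted p = 0.0684), and rpl36 at 0.20 and rpl22 at 0.11 were nearer to the other plastid genes. The differences of rpl32 and rpl33 were negative here, at −0.07 and −0.27, and not called. With the arrays centred instead on the median level of the same genes, the median difference of all probe sets was −0.69, rpl20 alone was called, at 1.42 (limma adjusted p = 0.0136), against 0.308% of all probe sets, and rpl14 had an adjusted p of 0.0535.

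The 3 pam48 arrays differed in how far the members lay above wild type. The median of the 7 genes was 0.46 above the wild-type mean on pam48 replicate 1, 0.80 on replicate 2 and 0.61 on replicate 3. Replicate 2 was the highest pam48 array for 6 of 7 members, and replicate 1 the lowest for 6. The other plastid genes followed the same order, with medians of 0.23, 0.60 and 0.28.

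Replicate 2 of pam48 also had the widest 3′ minus 5′ difference of the control probe sets, a measure of RNA integrity and of how far the labelling reached. For GAPDH it was 2.41 on that array and 1.13 to 1.44 on the others, and for actin 3.67 against 2.46 to 3.23. The part of this in the results was not tested, but the values without that array are measured. Without it the median of the members was 0.48, rpl20 was at 1.70, rpl14 at 1.02 and rpl16 at 0.92, all 7 differences stayed positive, and 0 members were called (adjusted p = 0.0845 for rpl20, 0.104 for rpl14 and 0.129 for rpl16 by limma). Plastid mRNAs carry no stable poly(A) tail, and the primer used for labelling is not given in the sources used here. In the fit with weighted arrays the lowest weight was that of pam48 replicate 1 (0.37), followed by pam48 replicate 2 (0.71).

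**Figure D4:**
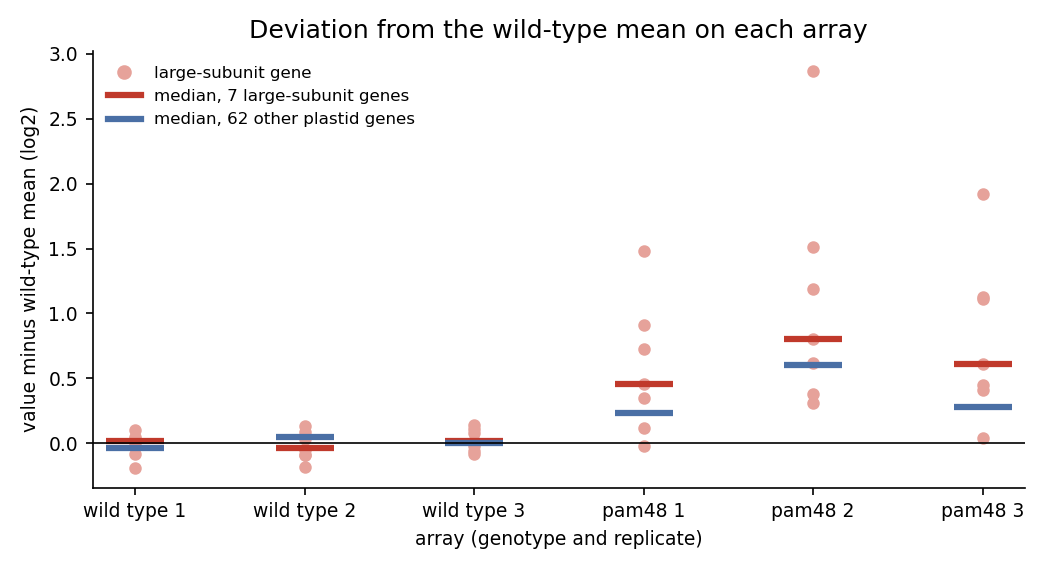
Value minus the wild-type mean (log2) on each of the 6 arrays for the 7 large-subunit genes (pale points), their median (red bar) and the median of the 62 other plastid genes (blue bar). On the pam48 arrays the member medians are 0.46, 0.80 and 0.61 and those of the other plastid genes 0.23, 0.60 and 0.28.

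Across the 6 arrays rpl20, rpl14 and rpl16 followed the mean of the other members with Pearson's r of 0.98 to 0.99, rpl36 and rpl22 with 0.95, rpl32 with 0.87 and rpl33 with 0.68. These values are descriptions, since the points share the genotype difference. The plastid genes whose 6 values were most like the mean of the members were ndhD (r = 0.996), which encodes a subunit of the NDH complex and rose by 1.01 ± 0.15 (limma adjusted p = 0.0466), psbE (r = 0.992), of cytochrome b559 in photosystem II, and rpoC1 (r = 0.986). The call of ndhD was lost with quantile normalization (adjusted p = 0.0553), without each single array other than pam48 replicate 1 (0.0897 to 0.214), and relative to the other plastid transcripts, where its difference was 0.62 (adjusted p = 0.0665) or 0.35 (0.173). Outside the plastid they were CIL (r = 0.997), a relative of the regulator CIA2, NRPA2 (r = 0.995), a subunit of RNA polymerase I, and AT1G35190 (r = 0.992). Of 13279 genes compared, 149 had an r above 0.95, and limma gave these nuclear genes adjusted p of 0.0620, 0.0858 and 0.178, so that they were not called on the deposited values. CIL was called with median centring (adjusted p = 0.0421), with array weights (0.0171) and without pam48 replicate 1 (0.0259), and NRPA2 with array weights (0.0280) and without pam48 replicate 1 (0.0392).

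**Figure D5:**
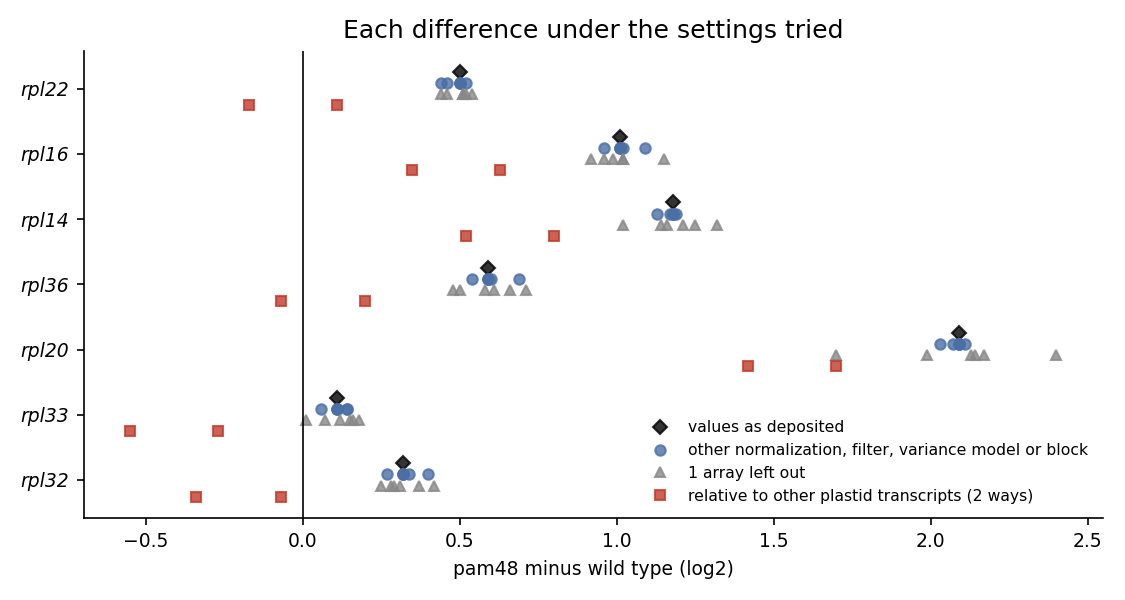
Difference of pam48 minus wild type (log2) of each large-subunit gene from the values as deposited (black), under other settings of the same comparison (blue), with 1 array left out (grey) and relative to the other plastid transcripts in 2 ways (red). All blue and grey points are positive, while red points are negative for rpl22, rpl36, rpl33 and rpl32 under 1 or both scalings, and those of rpl20 stay at 1.42 and 1.70.

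The arrays had medians between 6.38 and 6.55 and correlated with each other at 0.952 to 0.992. Of 11 leaf markers 4 were matched to a probe set annotated with that gene alone. RCA, which encodes Rubisco activase, lay between 14.15 and 14.37 on all arrays. The gene rbcL, of the large subunit of Rubisco, lay between 10.12 and 10.60 in wild type and between 11.01 and 11.53 in pam48, without overlap and not called (0.87 ± 0.19, limma adjusted p = 0.120). On all arrays psbA lay between 10.40 and 11.33 and psaA between 7.55 and 8.13. Of 10 markers of other tissues 3 were matched in the same way. The apex gene CLV3 lay between 3.20 and 3.70 and the guard cell gene FMA between 5.47 and 6.08, both lower in pam48 without overlap and without a call. The root gene PYK10 ranged from 5.19 to 8.51 in wild type and from 5.56 to 9.74 in pam48, highest on pam48 replicate 2, and its part in the results was not tested. In whole leaves, a change in the number of cells or plastids and a change in RNA per cell cannot be told apart.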

How the data were processed

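The authors deposited 1 log2 value per probe set and array. They made these values with RMA, per the submitters' processing notes, with version and genome build not stated there. The log2 scale was inferred from the range of the values. Scanner intensities were not used here. Of 22810 rows 64 controls were left out. Names came from GEO's platform annotation and, through Entrez IDs, the gene table of TAIR10.1 (used for names, chromosomes and gene order), which held 13436 of the probe sets with 1 gene. A gene that was not matched in this way may still have a probe set on the array.

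The genotype difference was fitted with limma (version 3.58.1, R 4.3.3, lmFit and eBayes, two-sided), adjusted by Benjamini-Hochberg over 22746 probe sets and called at an adjusted p under 0.05, and the code was tested on simulated data. Deviations from the genotype means correlated with 0.53, 0.20 and 0.54 between arrays of replicate numbers 1, 2 and 3. Each lay above the limit of 0.1, so the numbers were treated as pairing the arrays, although no label says so. The fit with that block was an alternative. The main fit had no block, and it gave the differences, errors, intervals and calls wherever no other setting is named. The others were quantile normalization, median centring, 2 scalings to the plastid transcripts, removal of the dimmest 40% of probe sets, eBayes with trend and robust options, weighted arrays, omission of each array and a threshold of 0.01.

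Named were all members, their map neighbours, the 3 plastid and 3 other genes most like the members in Pearson correlation, and the 2 widest differences of the nuclear list, with genes of the small subunit, the RNA polymerase and the marker lists beside them. The members and lists were chosen with earlier results of these data known. Where a gene had several probe sets, the one of highest mean was used. P-values are from limma's test of the genotype difference, in which eBayes adjusts the variance of each probe set with information from all of them. The number of arrays per genotype limits the precision.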

Additional observations from a re-analysis of the deposited data

How the results depend on the processing

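The scaling to the median deviation of the plastid genes was chosen after seeing the data. The 2 called members became 1 when arrays were centred on the median level of the plastid genes and 0 at an adjusted p under 0.01, and 0 to 3 when 1 array was left out. The median difference of the members was −0.07 under that centring, 0.20 under the scaling to deviations, 0.48 to 0.71 with 1 array left out and 0.54 to 0.69 under the other settings. Centring on the plastid level also turned rpl22 (−0.17), rpl32 (−0.34), rpl33 (−0.55), rpl36 (−0.07), rpoA (−0.19), rpoB (−0.36), rps3 (−0.30), rps19 (−0.29), ndhF (−0.48), ccsA (−0.53), psbE (−0.32), AT1G35190 (−0.25), AT4G17560 (−0.47) and AT5G47190 (−0.51). It left 1 small-subunit gene called higher, in a fit that called 0.308% of all probe sets higher. Of the 7 measured nuclear large-subunit genes it called 1 lower, AT1G29070 (named after its values were seen). The same fit called 13103 of the 22746 probe sets lower, so this call does not set the gene apart. The scaling to deviations turned rpl32 (−0.07), rpl33 (−0.27), rpoB (−0.08), rps3 (−0.02), rps19 (−0.01), ndhF (−0.21), ccsA (−0.25), psbE (−0.04), AT4G17560 (−0.19) and AT5G47190 (−0.23). These scalings subtract the plastid difference from every probe set by construction. With 1 array left out, ndhF spanned −0.02 to 0.32, 0 to 2 small-subunit genes and 0 nuclear large-subunit genes were called.

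Over all probe sets 177 were called (136 higher, 41 lower). The count was 13173 (70 and 13103) with centring on the plastid level, 357 (49 and 308) with the scaling to deviations, 351 (258 and 93) with array weights and 412 (239 and 173) with the replicate block. With 1 array left out it ran from 1 to 291, with 1 to 238 higher and 0 to 53 lower; it was 1 without any 1 wild-type array, 12 without pam48 replicate 2 and 39 without pam48 replicate 3, and the cause was not tested. The replicate block added rpl20, rpoC1 and rpoC2 (limma adjusted p = 0.0447) to the calls among the genes named and ended none of those of members. The limit set by signal over background is unknown here, as no background values were used.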
